A study of Mus musculus with 2 samples.

Results

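Srsf10 was followed across the cells of mouse liver tumours as the gene that the study's short hairpin RNA was directed at. It was 1 of 32285 features, identified by its own row (ENSMUSG00000028676), and no other row carried its name. The series compared tumours of mice labelled shCtrl, whose genotype is given as WT, with tumours labelled shSrsf10, and its title names tumour immunity as the subject. There was 1 single-cell library per label, so no difference was set against replicates and no test between the libraries was made. The labels do not say which cells carried the hairpin, which sequence it targeted, what drove it, how old the mice were or how many were pooled. They also conflict on the preparation, naming a 5' kit with a flow cytometry sort in one place and a 3' kit with a slow spin of a liver suspension in another.

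Levels are given in CPM, the unique molecular identifiers (UMIs, 1 per captured RNA molecule) of Srsf10 per 1000000 UMIs of all genes in the cells summed. A log2 ratio is shSrsf10 over shCtrl unless another pair is named. Every interval is at 95%, is exact (Poisson for a CPM, conditional binomial for a ratio, Clopper-Pearson for a share) and covers counting error only. The cells analysed numbered 8767 in shCtrl and 7030 in shSrsf10, with 128971914 and 123840029 UMIs in all and medians of 12371 and 10519.5 UMIs per cell. The files shared 67 barcode sequences, and removing them left the tumour ratio given below at -1.23. Cells were grouped by raw UMIs: tumour cells by at least 5 UMIs of the keratins Krt8 and Krt18 and no Ptprc, T cells by at least 2 UMIs of Cd3d, Cd3e and Cd3g, neutrophils by S100a8 and S100a9 at 1% of UMIs or more, and macrophages by at least 3 UMIs of C1qa, C1qb and C1qc. Cells that met more than 1 rule, 52 in shCtrl and 86 in shSrsf10 with immune cells that held 5 or more keratin UMIs, were set apart.

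The classes were checked with markers that the rules did not use. All 6 further tumour markers, among them Afp and Alb, lay above 10 CPM in the tumour class of both libraries, as did all 5 T cell markers such as Trac, all 6 neutrophil markers such as Retnlg and all 6 macrophage markers such as Csf1r in their own classes. This limit did not set tumour cells apart. In shCtrl 6 tumour markers also passed it in neutrophils and 5 in T cells and macrophages. In shSrsf10 5 passed it in neutrophils and 4 in T cells and macrophages. Apoe was on the tumour and the macrophage list, at 7420 and 11278 CPM in these classes of shCtrl. Afp stood at 1604 CPM in shCtrl tumour cells and at 162, 329 and 173 CPM in T cells, neutrophils and macrophages. In tumour cells the T cell markers summed to 2.67 CPM in shCtrl and 7.02 CPM in shSrsf10. The 5 fibroblast markers (3 collagens, Dcn, Pdgfrb) summed to 9.34 and 70.2 CPM there, of which Dcn alone gave 8.65 and 67.1 CPM. In macrophages they summed to 7.26 CPM in shCtrl and 229 CPM in shSrsf10, where Col1a1 alone gave 143 CPM. Their part in the Srsf10 values was not tested.

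SRSF10 is an SR protein, one of a family of splicing factors that bind RNA through an RNA recognition motif and recruit the splicing machinery through a domain rich in arginine and serine. It is unusual in the family because its activity depends on phosphorylation: the phosphorylated protein activates splicing at the sites it binds, while the form that loses its phosphates in mitosis or after heat shock binds the U1 snRNP and represses splicing in general. Kinases of the CLK and SRPK families add these phosphates. A short hairpin RNA lowers the messenger RNA of its target, which is what the counts read.

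In the GRCm38 annotation Srsf10 lies on the plus strand of chromosome 4 from 135855747 to 135869908, with 10 transcripts, 4 of them protein coding. The counts join all of them, so no isoform was read. Because Srsf10 differed with the cell cycle in the results below, its RefSeq promoter window (GRCm38.p6, chr4:135855821-135856120, 250 bases before to 50 after the start site) was searched on both strands for 4 forms of the E2F element, TTTCCCGC, TTTCGCGC, TTTGCCGC and TTTGGCGC, chosen after the values were seen. E2F factors switch on genes of S phase. TTTCCCGC was found 3 times, on the minus strand, 198, 188 and 62 bases before the start site, with no overlap. The stretches below show the matches in capitals, read on the plus strand as the reverse complement.
chr4:135855867-135855896: ggccggGCGGGAAAggGCGGGAAAgcgcag
chr4:135855998-135856027: ccagagatctcGCGGGAAAaagccgttgtc
TTTCCCGC occurred in the windows of 334 of 27025 genes (1.24%), and any of the 4 forms in 704 (2.61%). It occurred 3 or more times in the windows of 2 genes, of which Srsf10 was 1. GENCODE places a start of the gene upstream of this window, so the bases shown can also be read as transcribed sequence. A match describes letters in the window and not binding of a factor.

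Srsf10 was lower in the tumour cells of the shSrsf10 library. In 6294 shCtrl tumour cells 5596 Srsf10 UMIs gave 45.7 CPM (44.5 to 46.9), and in 3684 shSrsf10 tumour cells 2124 UMIs gave 19.5 CPM (18.7 to 20.3). The log2 ratio was -1.23 (-1.30 to -1.16), so that 42.6% (40.5 to 44.8) of the shCtrl level remained and the transcript was lowered but still present. The difference could also be read per cell at a common depth. With each tumour cell thinned to 5000 UMIs, which left out 436 shCtrl and 172 shSrsf10 cells, an Srsf10 UMI was seen in 19.2% (18.2 to 20.3) of shCtrl cells and 8.31% (7.42 to 9.28) of shSrsf10 cells. Without thinning the shares were 50.3% and 35.3%, at median depths of 17296 and 26097 UMIs.

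Taken as whole classes, the T cells of both libraries held more Srsf10 than the tumour cells. They were also shallower, with median depths of 1878 UMIs in shCtrl and 2439.5 UMIs in shSrsf10. Tumour cells of 2000 to 5000 UMIs stood at 61.7 CPM (48.7 to 76.9) in shCtrl and 57.8 CPM (35.3 to 89.3) in shSrsf10. These intervals overlapped those of the T cells, and the part of depth in the difference between the classes was not tested. T cells stood at 76.3 CPM (59.7 to 96.1) in shCtrl, from 72 UMIs in 319 cells, and at 58.4 CPM (52.7 to 64.6) in shSrsf10, from 383 UMIs in 1842 cells. The log2 ratio was -0.39 (-0.75 to -0.0023), an interval that touched 0 when doublets were kept (upper bound 0.033) or shared barcodes left out (0.019). It was -0.60 (-0.92 to -0.27) when every cell that met the T cell rule was used, and -0.52 (-0.90 to -0.13) with a marker threshold 2 times as high. T cells with Cd8a or Cd8b1 and no Cd4, the cytotoxic lineage, stood at 85.5 CPM (58.9 to 120) in shCtrl and 54.0 CPM (46.6 to 62.1) in shSrsf10, a log2 ratio of -0.66 (-1.20 to -0.09). T cells with Cd4 and no Cd8a or Cd8b1 stood at 76.8 CPM (49.7 to 113) and 62.4 CPM (51.3 to 75.1), a log2 ratio of -0.30 (-0.94 to 0.39). The difference between the ratios of these subsets was not tested. In T cells with at least 1 Mki67 or Top2a UMI, the marks of dividing cells, Srsf10 stood at 85.9 CPM in shCtrl and 65.4 CPM in shSrsf10, and in those with none at 67.0 and 53.2 CPM.

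Neutrophils and macrophages gave few Srsf10 UMIs. Neutrophils, short-lived cells with little RNA, gave 5 UMIs in 141 shCtrl cells (39.2 CPM, 12.7 to 91.4) and 7 UMIs in 283 shSrsf10 cells (26.6 CPM, 10.7 to 54.9), and their log2 ratio of -0.56 had an interval from -2.43 to 1.44. Macrophages gave 36 UMIs in 380 shCtrl cells (37.4 CPM, 26.2 to 51.7) and 18 UMIs in 123 shSrsf10 cells (39.6 CPM, 23.5 to 62.6). Their log2 ratio was 0.08 (-0.82 to 0.94). When every cell that met the macrophage rule was used, tumour and T markers or not, the ratio was -0.79 (-1.40 to -0.20), so the macrophage value depended on how cells that meet several rules were treated. Cells of no class held 63.6 CPM in shCtrl and 33.4 CPM in shSrsf10, a log2 ratio of -0.93 (-1.23 to -0.63).

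**Figure D1:**
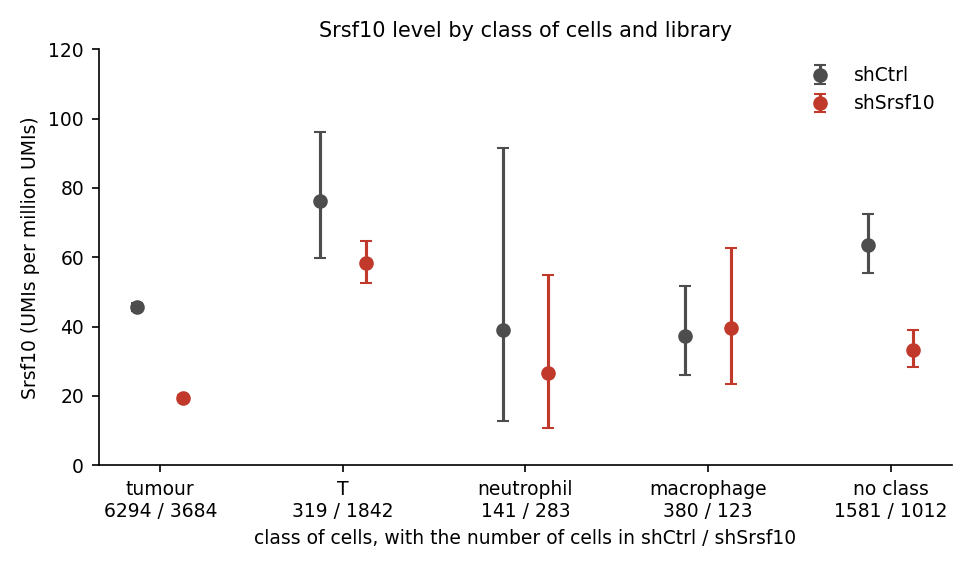
Srsf10 level (CPM, vertical axis from 0) in each class of cells of the shCtrl (grey) and shSrsf10 (red) library. Points are CPM over the summed cells and bars exact 95% Poisson intervals; the tumour points at 45.7 and 19.5 CPM lie far apart, while the macrophage and neutrophil bars of both libraries overlap widely.

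The order of the classes was not the same in both libraries. In shCtrl it ran from T cells through tumour cells (45.7 CPM) and neutrophils to macrophages, and the latter 3 did not differ beyond counting error: tumour over neutrophil had a log2 ratio of 0.22 (-1.0 to 1.85) and neutrophil over macrophage 0.07 (-1.64 to 1.42). T cells exceeded tumour cells there by 0.74 (0.38 to 1.07). In shSrsf10 tumour cells came last. T cells exceeded them by a log2 of 1.58 (1.42 to 1.74) and macrophages by 1.02 (0.27 to 1.69), while neutrophils did not differ from them beyond counting error (0.45, -0.86 to 1.5). All these ratios set shallow immune cells beside deeper tumour cells, and depth was not matched. Free RNA from tumour cells was gauged by Afp, Alb and Trf, transcripts of liver-type tumour cells. In shCtrl these stood at 8.65% of their tumour level in T cells, 20.7% in neutrophils and 15.5% in macrophages, and in shSrsf10 at 3.78%, 11.9% and 7.61%. The same share of tumour Srsf10 would come to 3.96, 9.46 and 7.07 CPM in shCtrl and 0.736, 2.31 and 1.48 CPM in shSrsf10. With that taken off, the ratio was -0.33 in T cells, -0.29 in neutrophils and 0.33 in macrophages. The 3 genes were pooled, and their shares were unlike in macrophages. In shSrsf10 macrophages Trf stood at 249 CPM against 1945 CPM in tumour cells, Afp at 37.4 against 1107 CPM and Alb at 68.2 against 1600 CPM. The part of Trf in the macrophage value was not tested.

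The lower level of Srsf10 was seen in tumour cells of 5000 UMIs or more. In cells of 5000 to 10000 UMIs the levels were 42.1 CPM in shCtrl and 22.5 CPM in shSrsf10, in those of 10000 to 20000 UMIs 40.3 and 18.3 CPM, in those of 20000 to 40000 UMIs 48.8 and 17.6 CPM, and above 40000 UMIs 46.6 and 21.1 CPM. The log2 ratios in these strata were -0.90 (-1.43 to -0.41), -1.14 (-1.34 to -0.95), -1.47 (-1.59 to -1.36) and -1.14 (-1.27 to -1.02). In the shallow cells the libraries did not differ beyond counting error. Cells of 2000 to 5000 UMIs stood at 61.7 CPM (78 UMIs in 344 cells) in shCtrl and 57.8 CPM (20 UMIs in 99 cells) in shSrsf10, a ratio of -0.09 (-0.88 to 0.63), and cells of 500 to 2000 UMIs gave only 6 and 5 UMIs. The shallow cells differed in composition as well. Ribosomal protein genes took 35.7% and 32.1% of UMIs in the cells of 2000 to 5000 UMIs against 44.8% and 44.5% at 10000 to 20000 UMIs, and mitochondrial genes 2.49% and 2.35% against 0.501% and 0.305%, and the part of this in the Srsf10 values was not tested. With the shSrsf10 cells weighted to the depths of the shCtrl cells, the levels were 45.7 and 19.1 CPM and the log2 ratio -1.26.

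Srsf10 was higher in dividing tumour cells, in both libraries. Cells with 3 or more UMIs of Mki67 and Top2a, proteins of dividing nuclei, made up 23.5% of shCtrl and 30.3% of shSrsf10 tumour cells. Such a count rises with depth, and the shSrsf10 tumour cells were deeper. At 10000 to 20000 UMIs the shares were 15.0% and 14.0%, at 20000 to 40000 UMIs 35.6% and 29.1%, and above 40000 UMIs 61.0% and 59.7%. In shallower cells they were 7.56% and 12.1% at 2000 to 5000 UMIs and 9.73% and 10.2% at 5000 to 10000 UMIs. In shCtrl the cells with 3 or more such UMIs held 56.8 CPM (54.5 to 59.2) of Srsf10 against 36.5 CPM (34.9 to 38.2) in cells with none, a log2 ratio of cycling over non-cycling of 0.64 (0.55 to 0.72). In shSrsf10 they held 23.5 CPM (22.1 to 25.0) against 16.02 CPM (14.8 to 17.3), a log2 ratio of 0.55 (0.41 to 0.70). The intervals of these 2 ratios overlapped. Cells with 1 or 2 such UMIs lay between the other classes at 46.9 CPM in shCtrl and 17.4 CPM in shSrsf10. Dividing cells were also deeper, with medians of 25761.5 against 14375.5 UMIs in shCtrl and 38093 against 20568.5 in shSrsf10. At 20000 to 40000 UMIs the difference was still there, with 59.7 against 40.1 CPM in shCtrl and 20.7 against 15.4 CPM in shSrsf10. Weighted to the depths of the cycling cells, the log2 ratios were 0.58 and 0.55.

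The difference between the libraries held in each cell cycle class. The log2 ratio of shSrsf10 over shCtrl was -1.19 (-1.32 to -1.06) in cells without Mki67 and Top2a UMIs, -1.43 (-1.59 to -1.27) in those with 1 or 2 and -1.27 (-1.38 to -1.17) in those with 3 or more. Dividing shSrsf10 tumour cells, at 23.5 CPM, thus still held less Srsf10 than shCtrl tumour cells without these UMIs, at 36.5 CPM.

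**Figure D2:**
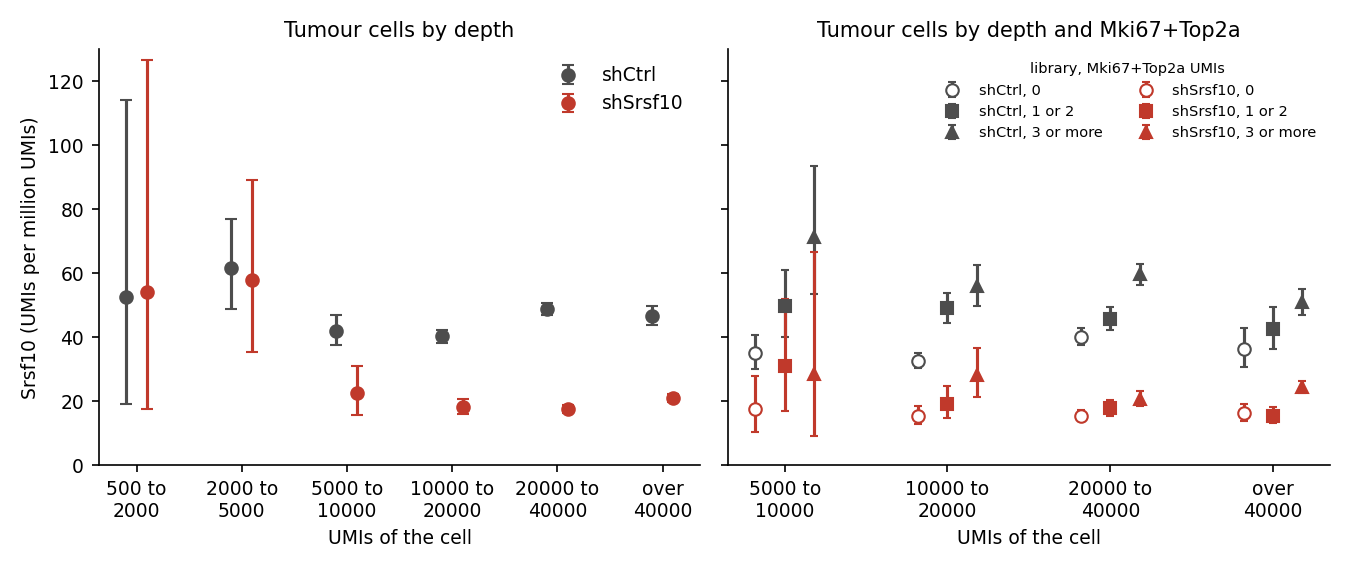
Srsf10 level (CPM, vertical axis from 0) of tumour cells by the UMIs of the cell, for the libraries as a whole (left) and split by the UMIs of Mki67 and Top2a (right). Bars are exact 95% Poisson intervals; the libraries separate from 5000 UMIs up, and cells with 3 or more Mki67 and Top2a UMIs (triangles) lie above those with 0 (open circles) in both libraries.

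Single tumour cells of the shSrsf10 library differed more in Srsf10 than counting alone gives. A cell's expected UMIs were its depth times the level of its library. Of 3684 shSrsf10 cells, 2382 held no Srsf10 UMI where 2197 were expected, and 37 held 5 or more where 8.43 were expected. Of 6294 shCtrl cells, 3125 held none where 2936 were expected, and 103 held 5 or more where 63.3 were expected. Cells thus lay further towards both ends in the shSrsf10 library, and the highest cells held 10 UMIs in shCtrl and 14 in shSrsf10. The cells with 5 or more UMIs were deep, with medians of 40365 UMIs in shCtrl and 57347 in shSrsf10, and 72.8% and 78.4% of them were cycling by Mki67 and Top2a. They held 10.3% of tumour Srsf10 UMIs in each library.

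This spread was put on 1 scale as the variance beyond counting divided by the squared mean, a number with no unit that is 0 where cells differ by depth and counting only. It was 0.15 for Srsf10 in shCtrl and 0.66 in shSrsf10. Across 24 SR and hnRNP genes with at least 500 UMIs in each library, the others had medians of 0.14 and 0.14, and the next largest increase was that of Srsf4, at 0.19, beside 0.51 for Srsf10. Srsf9, an SR protein gene with 19.4 CPM in shSrsf10 tumour cells and so as few UMIs as Srsf10, went from 0.13 to 0.17. With an expected level of its own for each Mki67 and Top2a class, Srsf10 stood at 0.10 and 0.56. In cells of 10000 to 40000 UMIs it stood at 0.14 and 0.80, and without the cell with the most UMIs at 0.14 and 0.59.

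**Figure D3:**
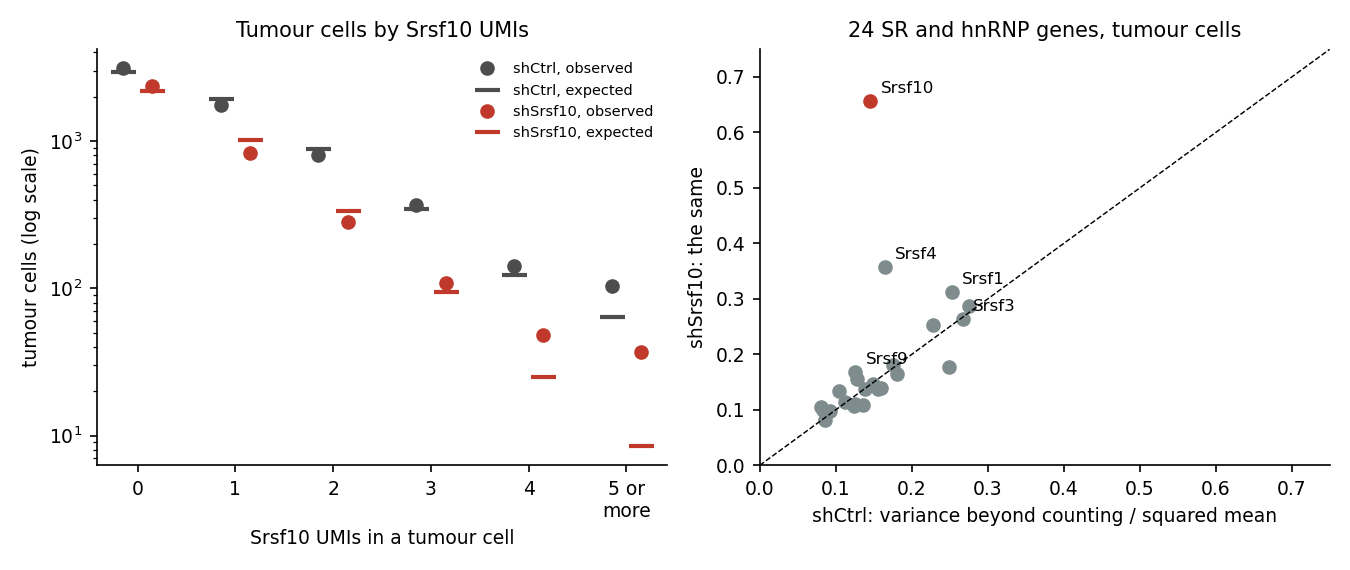
Left, number of tumour cells (log axis) by the Srsf10 UMIs they held, observed (points) and expected from depth and counting (dashes). Right, variance beyond counting over squared mean in shCtrl (horizontal) and shSrsf10 (vertical) for 24 SR and hnRNP genes; most lie near the dashed line of equality, and Srsf10 lies above it at 0.15 and 0.66.

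Srsf10 had the lowest ratio of the 12 SR family and Tra2 genes measured in tumour cells. Across 13105 genes with at least 50 UMIs over both libraries, 12% were at least 1.5-fold lower in shSrsf10 tumour cells and 6.96% at least 1.5-fold higher, and the median log2 ratio was -0.07. All 12 mitochondrial genome genes measured were among the lower genes, with a median of -1.04, and the part of this in the Srsf10 ratio was not tested. 217 genes (1.66%) were reduced more than Srsf10, and of the 3759 genes at 20 CPM or more in shCtrl 45 (1.20%) were. Of the other 11 SR family and Tra2 genes measured, 2 were at least 1.5-fold lower, 0 higher and 9 between, with a median log2 ratio of -0.27. Srsf9 went from 38.1 to 19.4 CPM (-0.98, -1.05 to -0.90) and Srsf2, which binds exonic enhancers, from 67.2 to 41.3 CPM (-0.70, -0.75 to -0.65). Srsf3, Srsf5 and Srsf7 had log2 ratios of -0.04, -0.0050 and -0.01. Srsf12, the closest relative of Srsf10, gave 1 and 0 UMIs, at or under the limit of detection.

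Regulators and partners of SR proteins were also read. Their counts stand beside 12% of all 13105 genes at least 1.5-fold lower, 6.96% at least 1.5-fold higher and a median of -0.07. Of 9 kinase and phosphatase genes measured, 2 were at least 1.5-fold lower and 0 higher, with a median of -0.33: Clk2, a kinase of SR proteins, went from 8.23 to 5.48 CPM (-0.59) and Dyrk1a from 10.5 to 6.78 CPM (-0.64). Clk1 had a ratio of -0.02, and Srpk1 of -0.16. Of 11 genes for SR protein import, export and U1 snRNP contacts, 2 were lower and 0 higher, with a median of -0.34. These were Luc7l2 (45.4 to 25.5 CPM, -0.83) and Luc7l3 (44.8 to 29.3 CPM, -0.61), relatives of a U1 snRNP protein, while Snrnp70, the U1 protein that dephosphorylated SRSF10 binds, had a ratio of -0.06. None of 12 hnRNP and repressor genes passed 1.5-fold (median -0.13). Among 4 genes that work on SRSF10 in liver cancer has linked to it, the glucose transporter gene Slc2a1 stood at 91.0 and 91.0 CPM, Hk1 at 17.6 and 13.9 CPM (-0.34) and Ldha at 1246 and 1479 CPM (0.25). Myb gave 2 and 1 UMIs, too few for a ratio.

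**Figure D4:**
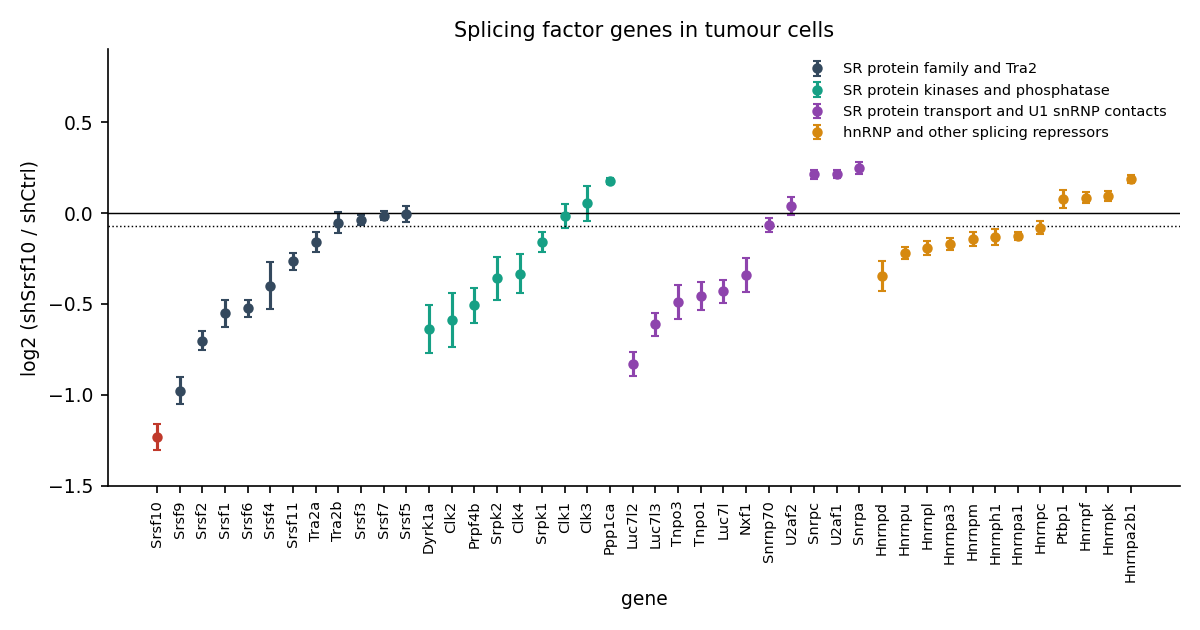
log2 ratio of shSrsf10 over shCtrl in tumour cells for Srsf10 (red) and the measured genes of 4 lists of splicing factors and their regulators, with exact 95% intervals for counting error. The solid line is 0 and the dotted line the median of all genes, -0.07; Srsf10 has the lowest ratio, at -1.23, and Srsf9 the next.

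Among genes that start within 100 kb of Srsf10, Pnrc2, which is read towards Srsf10 from the minus strand and ends 1009 bases from it, stood at 9.03 CPM in shCtrl and 8.31 CPM in shSrsf10 tumour cells (-0.12, -0.25 to 0.01). Fuca1, the gene of a lysosomal fucosidase, stood at 25.9 and 27.1 CPM (0.07, -0.0037 to 0.14). Neither differed between the libraries beyond counting error. Myom3 and Cnr2 were at or below 0.36 CPM in both libraries.

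Within each library, tumour cells with an Srsf10 UMI were compared with tumour cells without one. Each cell with an Srsf10 UMI was paired with the unused cell without one that was nearest in depth, within 5%, which gave 2050 pairs in shCtrl (64.7% of the cells with Srsf10) and 1111 in shSrsf10 (85.3%). The median depth of the paired sets was 17197.5 and 17199 UMIs in shCtrl and 31078 and 31082 in shSrsf10. Cells with Srsf10 that had no unused partner within 5% stayed out. The paired cells were thus shallower than all cells with Srsf10, whose median depths were 21973 UMIs in shCtrl and 33853.5 UMIs in shSrsf10. Whether a cell shows an Srsf10 UMI depends on sampling as well as on its level. Of 10172 genes, 324 (3.19%) were higher in cells with Srsf10 by a log2 ratio of at least 0.32 in both libraries and 70 (0.688%) lower by as much in both. The direction was the same in both libraries for 74.96% of genes, the median log2 ratio of all genes was 0.16 in shCtrl and 0.09 in shSrsf10, and across genes, which are not independent, the ratios had a Pearson r of 0.33.

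Some genes of DNA replication and mitosis were higher in tumour cells with Srsf10, beside 3.19% of all genes. Of 20 S phase genes 9 were higher by this fold in both libraries and 0 lower, 11 did not pass, and all 20 lay above 0 in each library, with medians of 0.57 in shCtrl and 0.31 in shSrsf10 beside the all-gene medians of 0.16 and 0.09. Rrm2, a subunit of the enzyme that makes deoxynucleotides, had the highest ratio of the 20 in each library. It stood at 29.4 CPM with and 16.3 CPM without Srsf10 in shCtrl (0.85, 0.71 to 1.00) and at 40.7 and 29.5 CPM in shSrsf10 (0.47, 0.35 to 0.58). Uhrf1, which keeps DNA methylation through replication, stood at 23.0 and 13.7 CPM in shCtrl (0.75) and at 24.4 and 18.3 CPM in shSrsf10 (0.41). Of 22 G2 and M phase genes 10 were higher in both, 0 lower, 12 did not pass and all 22 lay above 0 in each library, with medians of 0.53 and 0.29. Kif11, the motor that separates spindle poles, stood at 13.1 and 9.11 CPM in shCtrl (0.52) and 12.5 and 8.59 CPM in shSrsf10 (0.54). When only cells without Mki67 and Top2a UMIs were compared, 11 of 19 S phase genes were higher in both libraries, with medians of 0.42 and 0.45, beside 302 of 7788 genes (3.88%) and all-gene medians of 0.14 and 0.11. Of the 12 G2 and M phase genes measured in these cells, 11 were higher in both libraries, with medians of 0.78 and 0.54. Which genes passed the fold changed with this restriction, since 65 of these 302 genes were among the 324.

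Among the genes past the fold, the 12 genes highest in cells with Srsf10, ranked by the smaller of the ratios in the 2 libraries, were led by cell cycle genes. Smc2, a condensin subunit that compacts mitotic chromosomes, stood at 18.6 CPM with and 11.2 CPM without Srsf10 in shCtrl (0.73, 0.55 to 0.91) and at 16.01 and 9.08 CPM in shSrsf10 (0.82, 0.62 to 1.02). Cenpe, a kinetochore motor, had ratios of 0.76 and 0.69. Ccne1, the cyclin of S phase entry, had ratios of 0.67 and 0.76. Clspn, an adaptor of the replication checkpoint, had 1.16 and 0.64, and Cdc7, a kinase that fires replication origins, 0.64 and 0.77. Fam111a, a protease that acts at replication forks, had 1.14 and 0.66, Recql4, a helicase of replication, 0.66 and 0.68, and Usp1, a deubiquitinase of DNA repair, 0.62 and 0.77. The other 4 were Fbxo45 (0.63 and 0.75), Slco4a1 (0.62 and 0.68), Herc6 (0.82 and 0.60) and Mns1 (0.60 and 0.63). In cells without Mki67 and Top2a UMIs Mns1 had the opposite sign, with -0.28 in shCtrl and -0.67 in shSrsf10, and Fam111a stood at 0.14 in shCtrl. The ratios of these genes moved under other settings too. A RefSeq promoter window was found for 9 of the 12, and 1 of these, that of Clspn, held any of the 4 E2F forms searched for Srsf10.

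A few hypoxia and glycolysis genes were lower in tumour cells with Srsf10, beside 0.688% of all genes. Of 11 hypoxia response genes 3 were lower by the same fold in both libraries and 0 higher, with medians of -0.38 in shCtrl and -0.19 in shSrsf10. Above 0 lay 0 of them in shCtrl and 2 in shSrsf10. The 2 were Car9, at -0.45 in shCtrl and 0.51 (-0.02 to 1.04) in shSrsf10, and Egln3, at -0.16 and 0.03. Bnip3, a mitophagy receptor induced by low oxygen, stood at 108 CPM with and 197 CPM without Srsf10 in shCtrl (-0.87, -0.92 to -0.81) and at 106 and 171 CPM in shSrsf10 (-0.69, -0.75 to -0.63). Ndrg1, also induced by low oxygen, stood at 95.4 and 152 CPM in shCtrl (-0.67) and at 59.1 and 97.4 CPM in shSrsf10 (-0.72). Ankrd37, the last of the 3, had ratios of -0.59 and -0.50. Of 16 glycolysis genes 2 were lower in both and 0 higher, with medians of -0.23 and -0.15, and 3 in shCtrl and 4 in shSrsf10 lay above 0. These were Pgk1, a kinase of the ATP-producing part of the pathway (317 and 468 CPM in shCtrl, -0.56, and 380 and 495 CPM in shSrsf10, -0.38), and Pfkp, a subunit of phosphofructokinase (-0.45 and -0.42). Slc2a1 had ratios of -0.50 in shCtrl and -0.31 in shSrsf10 and missed the fold in shSrsf10. The lowest 12 genes also held Ero1l, an oxidase of the endoplasmic reticulum (-0.68 and -0.51), Efna1 (-0.53 and -0.56), Csn3 (-0.54 and -0.54), Acap1 (-0.97 and -0.85), Klra2, Tmem179, Tnnc1, Hamp, the gene of the iron hormone hepcidin (-0.68 and -1.10), and Apoc3, an apolipoprotein gene (-1.36 and -2.45). Hamp stood at 0.33 and Apoc3 at -0.32 in shCtrl when only cells without Mki67 and Top2a UMIs were compared, and Apoc3 at -0.77 in shCtrl with doublets kept. Of these 12 genes 7 had a promoter window, and 1, that of Hamp, held an E2F form.

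In this paired comparison no SR family or Tra2 gene passed the fold. All 11 measured lay above 0 in each library, and their medians of 0.21 and 0.20 stood beside all-gene medians of 0.16 and 0.09. This was not particular to them. All 11 transport and U1 snRNP genes and all 11 mitochondrial genome genes measured also lay above 0 in each library. Of 82 ribosomal protein genes 4 did in shCtrl and 7 in shSrsf10, with medians of -0.10 and -0.07. Srsf1 had ratios of 0.41 (0.29 to 0.52) in shCtrl and 0.15 (0.01 to 0.29) in shSrsf10, and Srsf3 of 0.35 (0.31 to 0.40) and 0.22 (0.18 to 0.27). MHC class II genes, which present antigen to CD4 T cells, had a median of 0.11 in shCtrl and 0.42 in shSrsf10, over 6 genes of which none passed the fold in both. Cd74, their chaperone, stood at 89.2 CPM with and 82.3 CPM without Srsf10 in shCtrl (0.12, 0.04 to 0.19) and at 926 and 720 CPM in shSrsf10 (0.36, 0.34 to 0.39). Genes induced by interferon gamma had medians of 0.33 and 0.31, beside the same all-gene medians. None of the 10 measured passed the fold in both. All 10 lay above 0 in shSrsf10 and 9 in shCtrl, and the share of all genes above 0 was not counted.

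**Figure D5:**
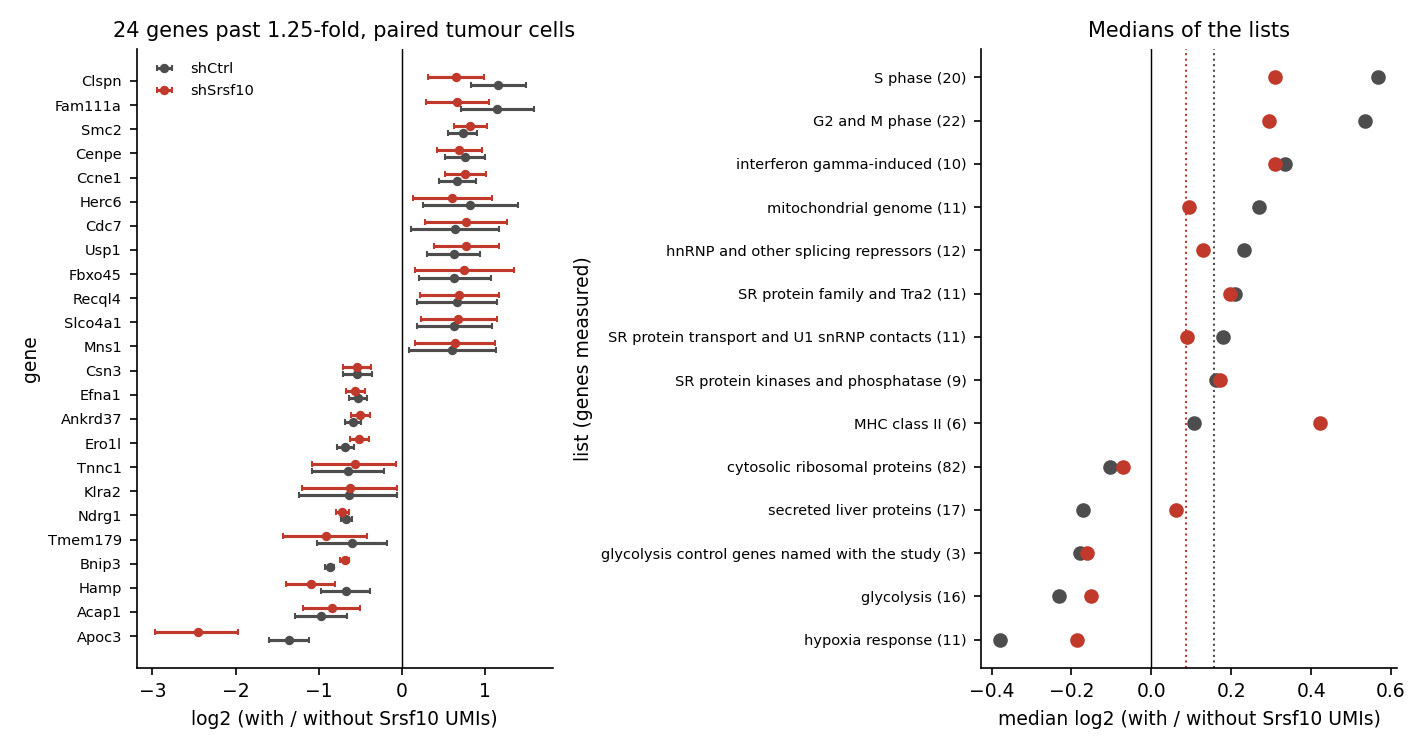
log2 ratio of tumour cells with over depth-paired tumour cells without an Srsf10 UMI, in shCtrl (grey) and shSrsf10 (red). Left, the 12 highest and 12 lowest genes with exact 95% intervals for counting error; right, the median of each list, with dotted lines at the medians of all genes (0.16 and 0.09), where the S phase and G2 and M phase lists lie highest in shCtrl and hypoxia lowest in both.

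The same split was made for the 3 genes of the SR family and hnRNP lists nearest to Srsf10 in level in shCtrl tumour cells. In shSrsf10 tumour cells Srsf9 (19.4 CPM) was near Srsf10 (19.5 CPM), while Tra2a (44.0 CPM) and Tra2b (39.9 CPM) were not. The paired cells with Tra2a and Tra2b had median depths of 20527.5 and 22142 UMIs there, beside 31078 for Srsf10. The shares that follow were not matched for level or depth. For Tra2a, a relative of the SR proteins, 7.26% of 9885 genes were higher in both libraries, for Tra2b 5.31% of 9804 and for Srsf9 0.243% of 10272, beside 3.19% for Srsf10. Genes lower in both made up 0.384%, 0.5% and 0.574%, beside 0.688% for Srsf10. S phase genes were higher in both in 1 of 20 cases for Tra2a, 17 for Tra2b and 0 for Srsf9, beside 9 for Srsf10, and G2 and M phase genes in 21 of 22 cases for Tra2a, 21 for Tra2b and 0 for Srsf9, beside 10. Of the genes tested for both, Tra2b shared 121 higher genes with Srsf10, 41.4% of those of Srsf10 and 23.2% of its own. Tra2a shared 102, 34.1% and 14.2%, and Srsf9 shared 1, 0.31% and 4.35%. Hypoxia genes had negative medians in both libraries for all 3, from -0.29 to -0.03 in shCtrl and from -0.19 to -0.10 in shSrsf10, beside -0.38 and -0.19 for Srsf10. Lower in both libraries were 2 of 10 hypoxia genes for Tra2a, 2 of 10 for Tra2b and 2 of 11 for Srsf9, beside 3 of 11 for Srsf10. MHC class II genes had medians of 0.69 in shCtrl and 0.49 in shSrsf10 for Tra2a. They had 0.28 and 0.21 for Tra2b and 0.25 and 0.29 for Srsf9, beside 0.11 and 0.42 for Srsf10. All 6 were higher in both libraries for Tra2a and 0 for the other genes. Interferon gamma-induced genes were in 5 of 10 cases for Tra2a, 1 for Tra2b and 0 for Srsf9, beside 0 for Srsf10.

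The relation was also read the other way, as the Srsf10 level in tumour cells of 10000 to 40000 UMIs ranked by the share of their UMIs in a list. The 25% of cells with the most S phase RNA held 63.4 CPM of Srsf10 in shCtrl against 30.0 CPM in the 25% with the least, and 24.2 against 11.9 CPM in shSrsf10. The splicing lists gave differences of like size. By the other SR family and Tra2 genes the high and low groups held 60.7 and 30.5 CPM in shCtrl (log2 1.00, 0.86 to 1.13) and 24.3 and 11.1 CPM in shSrsf10 (1.13, 0.86 to 1.42). The log2 ratios of high over low were 1.04 and 1.01 for transport and U1 snRNP genes, 0.86 and 0.67 for kinases and 0.71 and 0.88 for hnRNP genes. Srsf10 was thus higher where the summed RNA of these lists was higher, in both libraries. The groups by hypoxia genes, high against low, ran the other way, with 30.6 against 51.5 CPM in shCtrl and 12.1 against 19.9 CPM in shSrsf10. By glycolysis genes the high and low groups held 32.2 and 49.6 CPM in shCtrl and 13.2 and 18.8 CPM in shSrsf10. By interferon gamma-induced genes they held 49.9 and 42.1 CPM in shCtrl and 21.9 and 13.8 CPM in shSrsf10. Groups by ribosomal protein genes, which took 36.6% and 52.0% of UMIs in shCtrl, had 60.8 CPM in the low and 27.4 CPM in the high group, and 25.5 and 11.0 CPM in shSrsf10. These RNAs are a large part of the total that a CPM is taken over. The groups differed in depth too, for S phase with medians of 16808 and 22978 UMIs in shCtrl. In each of the 28 groups compared between libraries (14 lists, low and high) the shSrsf10 level was lower, by log2 ratios from -1.62 to -0.99. These groups are overlapping parts of the same tumour cells, so they restate the difference of the whole class and do not repeat it.

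Across the 4 classes in both libraries, 8 values, the 5 genes whose log2 level was most like that of Srsf10 were Hnrnpa3 (Pearson r 0.84), S100a13 (0.83), Ndufb7 (0.81), Arf5 (0.81) and Srsf3 (0.81), out of 592 genes with 20 UMIs or more in each value. Hnrnpa3, the gene of an RNA-binding protein of the hnRNP A family, stood highest in T cells as Srsf10 did (268 CPM in shCtrl and 258 CPM in shSrsf10), but at 138 and 123 CPM in tumour cells it lacked the large difference between the libraries. The values share libraries and depth, so r is a description. Srsf10 itself rested on 5 and 7 UMIs in neutrophils and on 18 in shSrsf10 macrophages, so counting error leaves this order uncertain.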

How the data were processed

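Mouse liver tumour cells were profiled in 1 shCtrl and 1 shSrsf10 library. The deposited files hold raw UMI counts per gene and barcode, made by the authors with Cell Ranger 6.1.0 and mm10, per the submitters' processing notes. The members, lists and alternatives were chosen with earlier results of these data known.

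Barcodes were kept with at least 200 genes, 500 UMIs and at most 20% mitochondrial UMIs. Of 9920 and 7553 barcodes, 375 and 64 were over the mitochondrial limit. Scrublet scores (scanpy 1.11.5) ranked likely doublets, and the highest 0.8% per 1000 barcodes were removed (787 and 456). Classes were built from raw counts, each cell meeting 1 rule only. Counts were summed per class as CPM. With 1 library per group no test was possible, and intervals cover counting error only. Genes in the comparison of the libraries needed 50 UMIs, and in that of cells with and without Srsf10 100 UMIs in each library. The text names the 12 highest and 12 lowest genes of the latter by the smaller ratio of the 2 libraries (mitochondrial, receptor segment, haemoglobin, sex-linked and unnamed genes left out), the 5 genes most like Srsf10 by Pearson r of log2(CPM + 1), genes starting within 100 kb (some are not reported here), the 3 SR or hnRNP genes nearest in level, and members of the lists by role. Kif11, Uhrf1, Cd74 and the hypoxia and glycolysis members named were picked after their values were seen. The scripts (Python 3.11.15, numpy 2.4.6, scipy 1.17.1, pandas 2.3.3, matplotlib 3.10.9) were tested on simulated data. Alternatives changed the doublet, barcode and class rules, the depth handling, the cell cycle genes and the pairing. The labels do not settle the kit, and the hairpin and protein sequences were not used here.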

Additional observations from a re-analysis of the deposited data

Results flagged for a closer look

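In tumour cells of 10000 to 40000 UMIs, Srsf10 ran in opposite directions along the secreted liver proteins (Alb, Ttr, apolipoproteins and others). In shCtrl the 25% of cells with the most of these RNAs held 42.3 CPM of Srsf10 and the 25% with the least 47.2 CPM, a log2 ratio of -0.16 (-0.28 to -0.03). In shSrsf10 they held 21.4 and 15.4 CPM, a log2 ratio of 0.47 (0.22 to 0.73). The ratios thus differed by 0.63 on the log2 scale, and with 1 library per group this difference was not tested. The median depths of the low and high groups were 18783 and 19226 UMIs in shCtrl and 24173 and 22258 UMIs in shSrsf10.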

How the results depend on the processing

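Of 63 alternative values of the main results 57 stayed within a set spread, and 6 moved beyond it. This spread was the counting interval for a ratio or share, and 1.5-fold either way for a gene count or the variance beyond counting. A wide interval, such as -2.43 to 1.44 in neutrophils, could hardly be left. A gene count could stay while its genes changed: the 302 genes higher in non-cycling cells stayed by count, though most were not among the 324. Among the 57 values that stayed, the macrophage ratio turned from 0.08, with an interval on both sides of 0, to -0.79 (-1.40 to -0.20) with each class by its rule alone. The tumour ratio of -1.23 became -1.14 as a mean over cells and -1.36 in cells of 10000 to 40000 UMIs, and the cycling ratio in shCtrl 0.73 with Cdk1, Ccnb1 and Birc5 as the marks. The 324 genes higher with Srsf10 became 633 with 2 or more Srsf10 UMIs against 0 (201 of them shared), and the 70 lower genes 39 in non-cycling cells only and 132 at unmatched depth. For the 24 highest and lowest genes 186 of 240 values stayed, 51 moved (19 of them in non-cycling cells, 14 with 2 or more Srsf10 UMIs, 12 at unmatched depth, 5 over 40 depth bins and 1, Apoc3 in shCtrl, with doublets kept) and 3 reversed, all in non-cycling cells: Mns1 at -0.28 in shCtrl and -0.67 in shSrsf10, and Hamp at 0.33 in shCtrl. The cause was not tested. The alternatives for the spread between cells, for free RNA, for T cell subsets, for cells of at least 5000 UMIs and for shared barcodes were chosen after seeing the data. Depth limits the neutrophils (5 and 7 Srsf10 UMIs) most. No paired analysis was possible because each group has 1 library.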
